A study of Mus musculus with 8 samples.

Results

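The immediate early genes followed in the peripheral blood of stressed and unstressed mice were Fos, Fosb, Jun, Junb, Egr1, Ier2, Atf3, Btg2, Zfp36 and Klf6. These 10 genes were chosen by symbol from the deposited count table, and 10 of 10 were present among its 21878 symbols. The samples came from female wild-type C57BL/6 mice of 6 to 8 weeks. The stress group held 4 samples from mice restrained for 6 h in a ventilated tube with neither food nor water, and the control group held 4 samples from littermates that stayed in the cage, also deprived of food and water, so that both groups had been fasted. The labels do not say that each library is a separate mouse. The p-values weigh the group difference against the spread between these samples, which may in part be technical.

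Immediate early genes are switched on within minutes of a signal, because the transcription factors and kinases that act on them are already present in the resting cell. Their transcripts are short-lived, so a transient signal leaves a transient trace. Fos, Fosb, Jun, Junb and Atf3 encode basic leucine zipper proteins that pair with one another on AP-1 or related sites. Egr1 and Klf6 encode zinc finger transcription factors, Btg2 an antiproliferative regulator linked to mRNA deadenylation, Zfp36 (tristetraprolin) a protein that destabilises AU-rich mRNAs, and Ier2 a small nuclear protein. In blood, many of these genes respond to adhesion, cytokines and handling of the cells.

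Values are CPM, the reads of a gene relative to the scaled size of its library, after TMM normalization, which sets libraries so that the typical gene does not differ. A fold change is the log2 of stress over control from edgeR's quasi-likelihood test, and its adjusted p (Benjamini-Hochberg) was taken over all 11718 genes that reached 10 counts in 4 or more of the 8 samples. All 10 immediate early genes passed this count filter. In whole blood, a change in the number of cells of a type and a change in the RNA of each cell cannot be told apart.

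Library totals were 31471145 to 39014775 in the control group and 25978683 to 29655725 in the stress group. Haemoglobin transcripts took 51.9% to 63.8% of the control counts and 61.2% to 75.5% of the stress counts (two-sided exact permutation test over samples, p = 0.0571). The TMM factors were 1.01 to 1.77 and 0.507 to 1.10 in these groups. All tested genes together had a median log2 fold change of -0.02 on the TMM scale and of -0.82 on total counts alone. Every direction given for a gene is therefore relative to the typical gene unless total counts are named. With the study's thresholds, an adjusted p under 0.01 and a log2 fold change beyond 1 in either direction, 198 genes were called higher and 2 lower on the TMM scale, against 14 higher and 729 lower on total counts alone.

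Junb was the immediate early gene with the clearest difference between the groups, and Jun, its close relative, did not pass the test. Sequence is shown for these 2 genes because they encode related proteins, for Fos because its spread between samples was among the widest, and for Btg2 because its level was the highest and its groups overlapped. The 250 bases before each transcription start are given from RefSeq (GRCm38.p6), 5′ to 3′ on the strand of the gene, with matches to TGACNTCA, TGANTCA and TGACG on either strand in capitals.
Junb (chr8:84978749-84978998, minus strand): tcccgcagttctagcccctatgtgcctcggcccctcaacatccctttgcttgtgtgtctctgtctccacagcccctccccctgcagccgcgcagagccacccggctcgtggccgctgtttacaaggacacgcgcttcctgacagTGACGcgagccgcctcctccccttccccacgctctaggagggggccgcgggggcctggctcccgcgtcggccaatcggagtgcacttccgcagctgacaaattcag
Jun (chr4:95052223-95052472, minus strand): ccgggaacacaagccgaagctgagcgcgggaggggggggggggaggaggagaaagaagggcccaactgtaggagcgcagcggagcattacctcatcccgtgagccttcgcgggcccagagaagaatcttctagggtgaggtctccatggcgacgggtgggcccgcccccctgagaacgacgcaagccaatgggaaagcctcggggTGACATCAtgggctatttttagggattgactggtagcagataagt
Fos (chr12:85473640-85473889, plus strand): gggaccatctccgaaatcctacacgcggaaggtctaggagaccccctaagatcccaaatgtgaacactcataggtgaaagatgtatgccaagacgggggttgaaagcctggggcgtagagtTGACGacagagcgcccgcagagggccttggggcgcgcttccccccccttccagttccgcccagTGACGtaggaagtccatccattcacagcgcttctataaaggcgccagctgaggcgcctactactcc
Btg2 (chr1:134079156-134079405, minus strand): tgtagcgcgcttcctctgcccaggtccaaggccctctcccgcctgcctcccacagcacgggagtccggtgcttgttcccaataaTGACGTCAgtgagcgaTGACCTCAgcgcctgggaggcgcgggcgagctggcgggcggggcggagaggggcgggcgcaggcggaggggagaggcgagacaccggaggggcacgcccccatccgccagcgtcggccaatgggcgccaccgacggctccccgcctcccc
RefSeq windows were found for 8 of the 10 genes, each running from 250 bases before to 50 bases after the start. Egr1 and Ier2 had no window and were not searched. In these windows of 300 bases, TGACNTCA, a CRE-type site, was found in 3 of 8 (Btg2, Jun and Klf6) and in 8.84% of 32817 RefSeq windows. TGACG, the CRE core, which overlaps TGACGTCA in Btg2, was found in 5 of 8 and in 20.8% of all windows. TGANTCA, the AP-1 site, was found in none of the 8 and in 7.81% of all windows. A CArG box, the binding site of serum response factor, was found in Zfp36 alone of these 8 and in 1.63% of all windows. Bases outside the windows were not searched, so a gene without a match may still have a site. These matches describe letters in these windows and no binding was measured.

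Junb encodes an AP-1 subunit that can restrain the activity of c-Jun. It lies on chromosome 8 from 84974484 to 84978718 on the minus strand (GRCm38, GENCODE annotation). Its level was 26.8, 27.1, 21.8 and 28.0 CPM in control samples 1 to 4, and 47.2, 46.0, 36.7 and 41.1 CPM in stress samples 1 to 4. The lowest stress sample was above the highest control sample, so the groups did not overlap. The mean rose from 25.9 ± 2.81 to 42.7 ± 4.83 CPM (SD, n = 4 each), a log2 fold change of 0.72 (SE 0.12, 95% interval 0.47 to 0.98) or 1.65-fold (1.39 to 1.97), with an adjusted p of 0.00206 by edgeR's quasi-likelihood test. With any single library left out the log2 fold change of Junb stayed between 0.65 and 0.81 and its adjusted p between 0.00124 and 0.00993. With libraries scaled by total counts alone it was -0.03 (adjusted p = 0.941 by edgeR), with 34.5 ± 5.70 CPM in the control group and 33.8 ± 11.2 CPM in the stress group, against the typical gene at -0.82 on that scale.

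Part of the Junb locus is shared with another gene. In the GENCODE annotation 173 of its 2301 exon bases overlap exons of Prdx2 on the opposite strand, a peroxiredoxin gene abundant in red cells, and the use of strand in the counting is not given in the sources used here. Prdx2, named after its values were seen, had 157, 111, 64.2 and 271 CPM in control samples 1 to 4, and 266, 294, 396 and 167 CPM in stress samples 1 to 4 (log2 fold change 0.90, SE 0.38, adjusted p = 0.129 by edgeR). The stress sample with the highest Prdx2 (sample 3) had the lowest Junb of its group. Among the control samples the one with the highest Prdx2 (sample 4) also had the highest Junb, 28.0 CPM, and the one with the lowest Prdx2 (sample 3) the lowest Junb, 21.8 CPM. The RefSeq models of Junb (84976909 to 84978748) and Prdx2 (84969622 to 84974811) do not overlap. The part of shared reads in the difference in Junb was not tested. Jun and Zfp36 likewise overlap antisense transcripts, Junos in 232 of 3189 exon bases of Jun and Gm44710 in 125 of 3470 of Zfp36.

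Jun encodes the founding AP-1 subunit, and it lies on chromosome 4 from 95049034 to 95052222 on the minus strand. Its level was 4.70, 4.95, 5.32 and 6.18 CPM in control samples 1 to 4 and 5.57, 5.29, 5.69 and 7.33 CPM in stress samples 1 to 4. The groups overlapped. The log2 fold change was 0.19 (SE 0.15, 95% interval -0.15 to 0.52, adjusted p = 0.443 by edgeR), an interval that holds both no change and a modest increase. The Jun to Junb count ratio within a library, which does not depend on how libraries are scaled, was 0.176, 0.183, 0.244 and 0.221 in control samples 1 to 4 and 0.118, 0.115, 0.156 and 0.179 in stress samples 1 to 4. The highest stress ratio lay within the control range. The mean log2 ratio differed by -0.55 (two-sided exact permutation test, p = 0.0571, adjusted p = 0.152 over 8 pairs of genes), which did not pass.

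**Figure D1:**
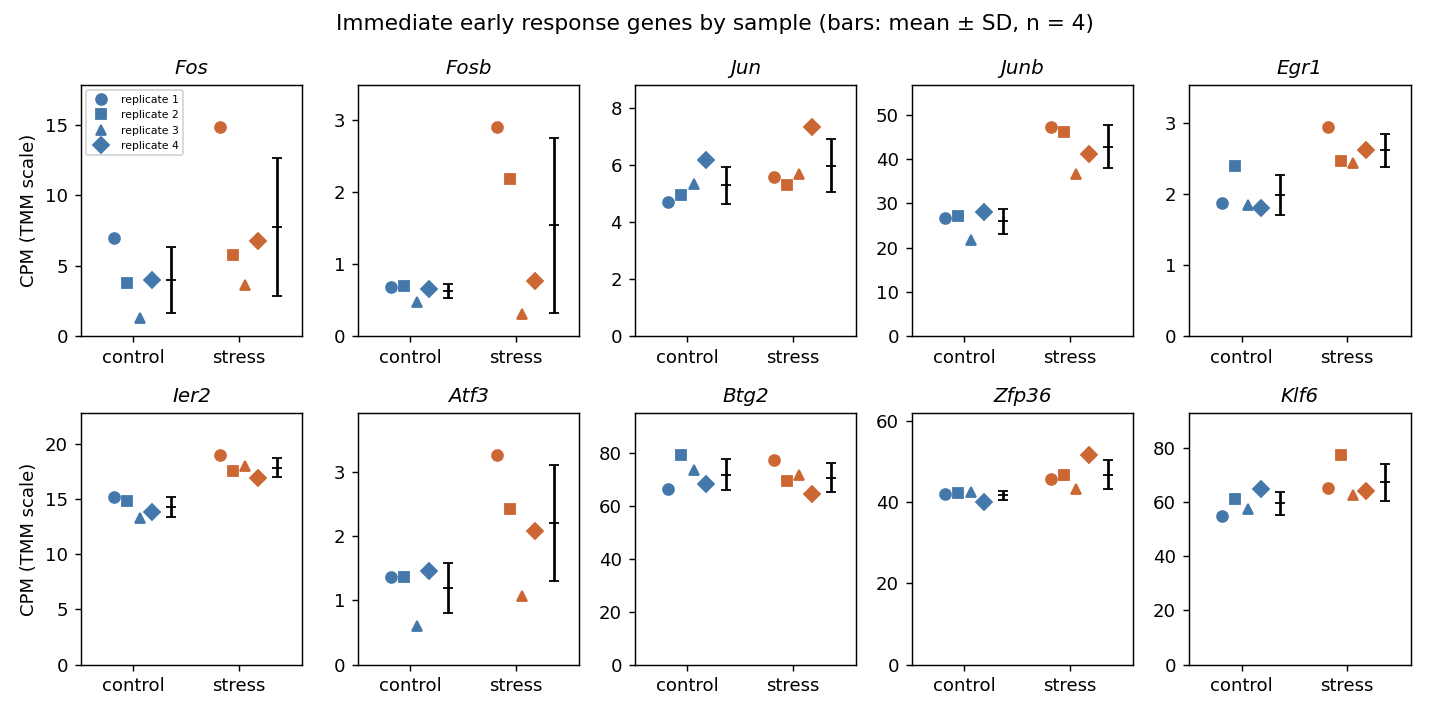
CPM on the TMM scale of the 10 immediate early genes in each of the 4 control and 4 stress samples, one panel per gene, with bars for the mean ± SD (n = 4) and 1 symbol per replicate number. The groups are apart for Junb, Egr1, Ier2 and Zfp36, while the stress samples of Fos run from 3.64 to 14.8 CPM and those of Fosb from 0.304 to 2.90 CPM.

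Fos, Fosb and Atf3 had the 3 highest fitted fold changes of the 10 genes, their samples spread widely, and none of them passed the test. Fos, the classical partner of Jun, lies on chromosome 12 from 85473890 to 85477273 on the plus strand. It had 6.95, 3.75, 1.30 and 4.0 CPM in control samples 1 to 4 and 14.8, 5.80, 3.64 and 6.79 CPM in stress samples 1 to 4. One stress sample was above the highest control sample and the other 3 lay within the control range. The means were 4.0 ± 2.31 and 7.77 ± 4.90 CPM (SD, n = 4 each), with a log2 fold change of 1.00 (SE 0.47, 95% interval -0.02 to 2.02, adjusted p = 0.167 by edgeR). Without stress sample 1 the log2 fold change was 0.51 (adjusted p = 0.464), and it was 0.69 without control sample 3 and 1.41 without control sample 1. With the replicate number as a block Fos had a log2 fold change of 0.97 and an adjusted p of 0.00666 by edgeR, so its call depended on the model.

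Fosb encodes a Fos relative, and lies on chromosome 7 from 19302696 to 19310051 on the minus strand. Its level was 0.679, 0.696, 0.477 and 0.662 CPM in control samples 1 to 4, and 2.90, 2.18, 0.304 and 0.768 CPM in stress samples 1 to 4. The highest 3 stress samples were above every control sample, and stress sample 3 was the lowest of all 8, with 4 counts. The log2 fold change was 1.33 (SE 0.50, 95% interval 0.24 to 2.41), with an unadjusted p of 0.0205 and an adjusted p of 0.0937 by edgeR's quasi-likelihood test. The call turned on single libraries, with a log2 fold change of 1.64 and an adjusted p of 0.0214 without stress sample 3, 1.57 and 0.049 without stress sample 4, and 0.86 and 0.294 without stress sample 1.

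Atf3 encodes a stress-induced repressor of the ATF/CREB family, and lies on chromosome 1 from 191170296 to 191218039 on the minus strand. It had 1.36, 1.35, 0.607 and 1.45 CPM in control samples 1 to 4 and 3.26, 2.41, 1.06 and 2.08 CPM in stress samples 1 to 4. Stress samples 1, 2 and 4 were above every control sample and stress sample 3 was not. The means were 1.19 ± 0.393 and 2.20 ± 0.907 CPM (SD, n = 4 each), with a log2 fold change of 0.93 (SE 0.35, 95% interval 0.19 to 1.68, adjusted p = 0.0872 by edgeR). Without stress sample 3 it was 1.15 and passed an adjusted p of 0.05 (0.0334), and without control sample 3 it was 0.69 (0.211).

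Egr1 and Klf6 are zinc finger factors, Egr1 acting in growth and inflammatory signalling and Klf6 as a widely expressed regulator. Egr1 had 1.87, 2.40, 1.85 and 1.80 CPM in control samples 1 to 4 and 2.94, 2.46, 2.43 and 2.62 CPM in stress samples 1 to 4. The groups did not overlap, but the highest control sample (2.40) and the lowest stress sample (2.43) were close. The log2 fold change was 0.40 (SE 0.20, 95% interval -0.02 to 0.82, adjusted p = 0.183 by edgeR), which did not pass. Klf6, on chromosome 13 from 5861482 to 5870394, had 54.8, 61.3, 57.5 and 64.7 CPM in control samples and 65.0, 77.3, 62.8 and 64.0 CPM in stress samples 1 to 4. Of the stress samples 2 were above every control sample and the groups overlapped. Its log2 fold change was 0.18 (SE 0.11, 95% interval -0.06 to 0.41, adjusted p = 0.292).

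Ier2, on chromosome 8 from 84661331 to 84662852, had 15.2, 14.8, 13.3 and 13.8 CPM in control samples 1 to 4. The stress samples had 19.0, 17.5, 18.0 and 16.9 CPM, all above the highest control sample. The mean rose from 14.3 ± 0.891 to 17.9 ± 0.872 CPM (SD, n = 4 each), a log2 fold change of 0.32 (SE 0.10, 95% interval 0.11 to 0.53, adjusted p = 0.0439 by edgeR). This call was close to the threshold. It was lost, with adjusted p-values of 0.0634, 0.104, 0.145 and 0.0666, without control samples 1, 2, 3 and 4 in turn, and with 0.0718 and 0.0555 without stress samples 1 and 2. It was also lost with no count filter (adjusted p = 0.066), with upper quartile factors (0.0521) and with the replicate number as a block (0.0888). On total counts alone the log2 fold change was -0.47 (0.226).

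Btg2 and Zfp36 both act on the fate of mRNA. Btg2 lies on chromosome 1 from 134075170 to 134079120 on the minus strand. It had 66.5, 79.3, 73.5 and 68.1 CPM in control samples 1 to 4 and 77.4, 69.4, 71.8 and 64.5 CPM in stress samples 1 to 4. No sample of either group stood apart, and the means of 71.8 ± 5.78 and 70.8 ± 5.34 CPM (SD, n = 4 each) gave a log2 fold change of -0.02 (SE 0.11, 95% interval -0.25 to 0.21, adjusted p = 0.915 by edgeR). On total counts alone the log2 fold change of Btg2 was -0.84 (adjusted p = 0.0283), close to the median of -0.82 over all tested genes. Zfp36, on chromosome 7 from 28376784 to 28380253, had 41.9, 42.3, 42.5 and 40.0 CPM in the control samples and 45.7, 46.6, 43.2 and 51.6 CPM in the stress samples. Each stress sample was above each control sample, although the log2 fold change of 0.17 (SE 0.10, 95% interval -0.04 to 0.37, adjusted p = 0.258 by edgeR) did not pass.

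At the thresholds of the study 0 of the 10 genes were called by edgeR, DESeq2 or limma-voom, beside 1.69% of all tested genes called higher and 0.0171% called lower by edgeR. Junb alone passed an adjusted p below 0.01 with no limit on the fold, beside 4.60% of all genes that were higher at that level. Junb and Ier2 passed an adjusted p below 0.05, beside 10.4% of all genes higher and 3.69% lower. At an unadjusted p below 0.05, 4 of 10 were higher by edgeR, beside 18.2% of all genes. On the TMM scale 9 of 10 had a log2 fold change above 0, beside 47.1% of all genes above 0 and 52.9% below. On total counts alone 3 of 10 did (Fos 0.35, Fosb 0.56 and Atf3 0.24), beside 9.98% of all genes. The groups did not overlap for 4 of 10, all higher in stress, beside 11.1% of all genes higher and 9.87% lower, and for 0 of 10 on total counts alone. Their median log2 fold change was 0.36 with TMM, beside -0.02 for all tested genes, and -0.43 by total counts, beside -0.82. Measured from that median, 9 of 10 were still above the typical gene on total counts, Btg2 being below it by -0.02.

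**Figure D2:**
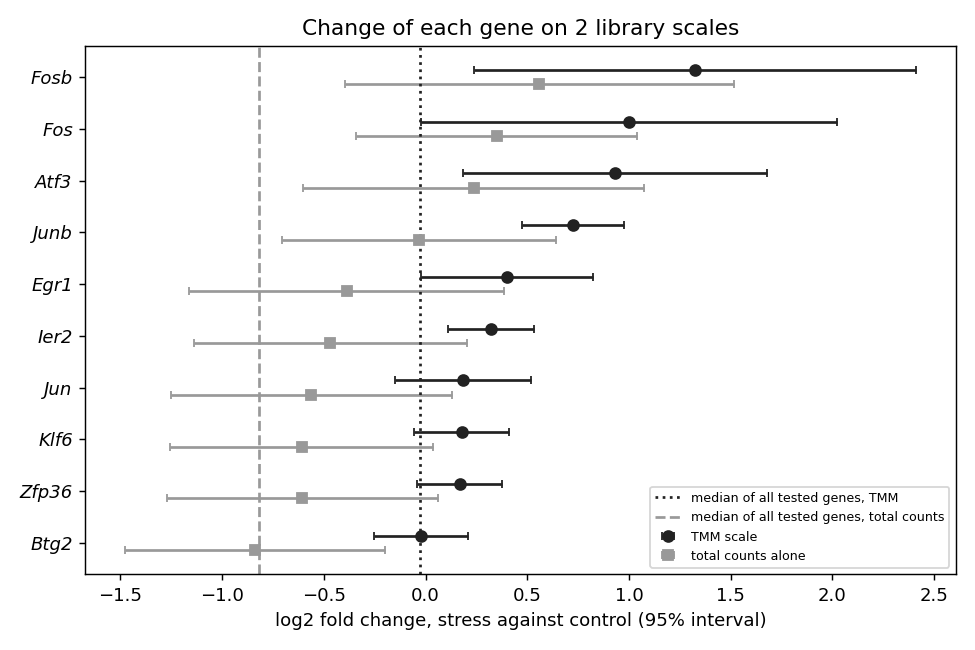
Log2 fold change of stress over control for the 10 immediate early genes on the TMM scale with 95% intervals from edgeR, and on total counts alone. Vertical lines mark the median of all tested genes on each scale. The intervals of Junb (0.47 to 0.98), Ier2 (0.11 to 0.53), Fosb and Atf3 lie above 0 on the TMM scale. On total counts alone 3 of 10 genes are above 0, beside 9.98% of all tested genes.

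The spread between samples set the genes apart from each other. In the control group the SD of log2 CPM was 0.99 for Fos, larger than in 99.2% of all tested genes, and 0.56 for Atf3 (93.1%), whereas it was 0.04 for Zfp36 (3.28%). In the stress group it was 1.39 for Fosb (98.7%), 0.84 for Fos (94.4%) and 0.66 for Atf3 (89.9%), and 0.07 for Ier2 (2.82%), beside medians of 0.16 and 0.28 over all tested genes in the control and stress groups. In units of fold, the highest control sample had 5.35 times the lowest for Fos and 1.06 times for Zfp36, and the highest stress sample had 9.55 times the lowest for Fosb and 1.12 times for Ier2. The sample with high values tended to be shared. Stress sample 1 was the highest of 8 in 6 of 10 genes, and within the stress group sample 1 was highest in 7 and sample 3 lowest in 7. In the control group sample 3 was lowest in 5. Stress sample 3 had the fewest total counts of the 8 samples and the lowest TMM factor. Control sample 3 had the most total counts and the highest factor. The part of depth and scaling in these orders was not tested. The percentages of spread are over tested genes of every level. Stress counts were 4 to 65 for Fosb, 14 to 73 for Atf3 and 48 to 333 for Fos. They were 32 to 82 for Egr1 (SD 0.12 in stress), 237 to 529 for Ier2 and 569 to 1611 for Zfp36. The part of count level in the spread was not tested.

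**Figure D3:**
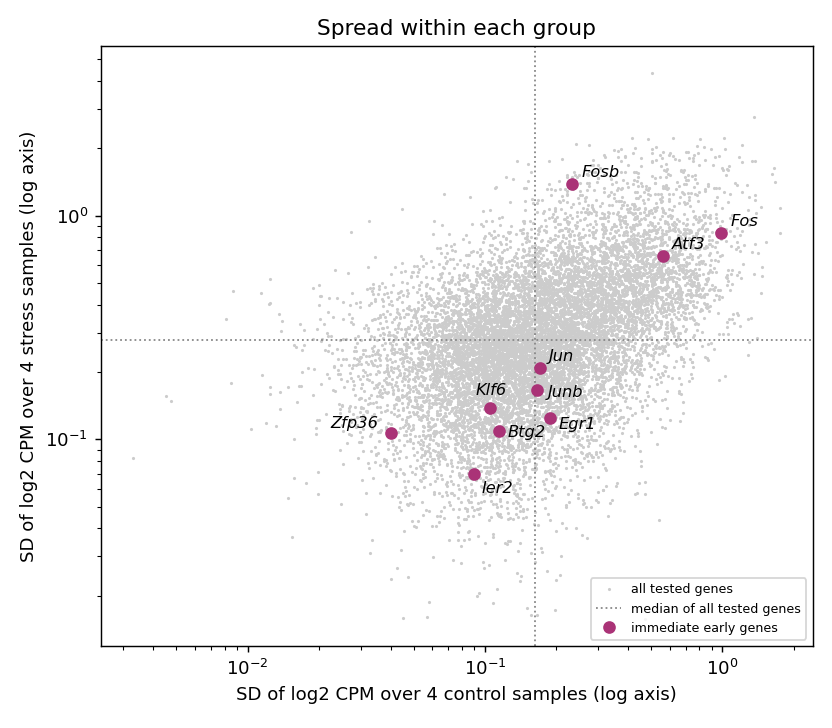
SD of log2 CPM over the 4 control samples (horizontal) against the SD over the 4 stress samples (vertical), both on log axes, for all tested genes (grey) and the 10 immediate early genes (large points), with dotted lines at the medians of all tested genes. On the vertical axis Fos, Fosb and Atf3 lie at 0.66 to 1.39, above the median of 0.28, and Ier2 and Zfp36 lie well below it.

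Ratios of 2 genes within a library are unaffected by library scaling, and 8 pairs were compared. The Klf6 to Junb ratio was 2.05, 2.26, 2.64 and 2.31 in control samples 1 to 4 and 1.38, 1.68, 1.71 and 1.56 in stress samples 1 to 4. All stress ratios were below all control ratios, and the mean log2 ratio differed by -0.55 (exact permutation test, two-sided, p = 0.0286, which is the lowest possible with 4 against 4, adjusted p = 0.114 over 8 pairs). The Zfp36 to Junb ratio was 1.57, 1.56, 1.95 and 1.43 in the control samples and 0.967, 1.01, 1.18 and 1.25 in the stress samples, likewise with no overlap (difference -0.56, exact p = 0.0286, adjusted p = 0.114). No pair passed after adjustment. With 4 against 4 samples, a pair could pass only if most of the 8 pairs reached the lowest possible p. This outcome therefore cannot show that the ratios were alike between the groups. The Fos to Fosb ratio differed by 0.14 in log2 (exact p = 0.886) and Fos to Jun by 0.82 (exact p = 0.343), with Fos to Jun ratios of 1.48, 0.758, 0.246 and 0.649 in the control samples and 2.66, 1.10, 0.642 and 0.926 in the stress samples. Egr1 to Fos differed by -0.58 (exact p = 0.371), Btg2 to Zfp36 by -0.18 (exact p = 0.143) and Ier2 to Zfp36 by 0.16 (exact p = 0.171).

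**Figure D4:**
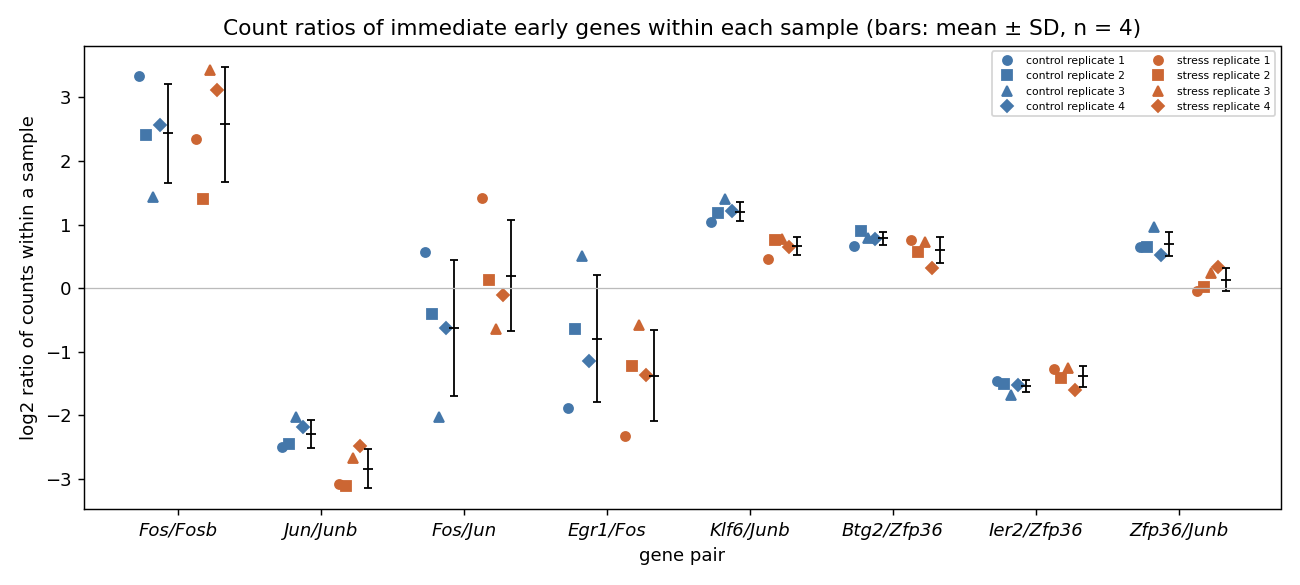
Count ratio of 2 immediate early genes within each of the 4 control and 4 stress samples, on a log2 scale, for the 8 pairs compared, with bars for the mean ± SD (n = 4). The Klf6 to Junb and Zfp36 to Junb ratios of the stress samples lie below those of all control samples.

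Levels between genes were compared per length, as CPM per kilobase of the union of annotated exons, a scale that differs from the CPM given above. In the control group Btg2 was highest at 26.2 ± 2.11 (SD, n = 4), followed by Klf6 at 13.6 ± 0.988, Zfp36 at 12 ± 0.332, Junb at 11.3 ± 1.22 and Ier2 at 9.39 ± 0.586. By their means Fos (1.70 ± 0.984) and Jun (1.66 ± 0.203) came next, then Atf3 (0.554 ± 0.182), Egr1 (0.442 ± 0.0627) and Fosb (0.101 ± 0.0164). The control ranges of neighbours in this order overlapped for Zfp36 and Junb, for Junb and Ier2, for Fos and Jun, and for Atf3 and Egr1, so these pairs could not be ordered. Fos and Atf3, which are not neighbours, could not be ordered either. Fos in control sample 3 (1.30 CPM over 2352 bases) lay below Atf3 in control sample 4 (1.45 CPM over 2154 bases). Btg2, Klf6, Zfp36, Junb and Ier2 lay above the other 5 genes. In the stress group Junb was at 18.6 ± 2.10 and Btg2 at 25.8 ± 1.95 CPM per kilobase (SD, n = 4). The order of 3 genes turned with the length used. With the longest transcript as length the control means were 14.9 for Zfp36, 14.3 for Junb and 14.1 for Klf6, so that Klf6 was no longer above Zfp36 and Junb.

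For each gene the other tested gene with the closest profile over the 8 samples was found, as the smallest Euclidean distance between log2 CPM values centred on their own mean. Dusp1, a phosphatase that switches off MAP kinases and is itself an immediate early gene, was closest both to Fos (distance 0.950) and to Atf3 (0.618). Its level was 23.0 ± 8.61 CPM in the control group and 39.0 ± 17.5 CPM in the stress group (log2 fold change 0.77, SE 0.33, adjusted p = 0.135 by edgeR), which did not pass. Atf3 was the closest of the 10 genes to Fos, with 2 other tested genes closer. Fos had the fewest such genes. For each of the others, between 8 (Fosb) and 1646 (Btg2) tested genes were closer than any of the 10. For Atf3 itself, Junb was the closest of the 10, with 105 tested genes closer. The closest genes were Ptpn11 for Junb (0.252), Tbc1d2 for Fosb (1.02), Zc3h12a for Jun (0.249), Snx20 for Egr1 (0.277), Prkaca for Ier2 (0.157), Copb1 for Btg2 (0.127), Wipf1 for Zfp36 (0.0938) and Eif4g2 for Klf6 (0.180). These distances describe likeness over 8 samples that share the 2 groups and the library scaling.

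The related gene lists were read for the same comparison, where 10.4% of all tested genes passed an adjusted p below 0.05 upward and 3.69% downward. Of all tested genes 47.1% were above 0 on the TMM scale and 9.98% on total counts alone. Of 14 tested AP-1 and bZIP partners of the 10 genes, 10 were higher on the TMM scale and 4 on total counts alone, with 6 passing an adjusted p below 0.05 upward and 0 downward, and a median log2 fold change of 0.47. Atf5 (log2 fold change 0.95, adjusted p = 0.00725), Atf4, the main effector of the integrated stress response (0.53, 0.00727), and Fosl2 (1.22, 0.0118) had the smallest p-values in edgeR's quasi-likelihood test. Fosl2 encodes Fra-2, a Fos relative, and rose from 9.91 ± 2.13 to 22.7 ± 9.20 CPM (SD, n = 4 each). Jdp2 (1.46, adjusted p = 0.0123), Jund (0.77, 0.0351) and Mafg (0.59, 0.0158) complete the 6 and were named after their values were seen. Of 29 other immediate early genes tested, 20 were higher on the TMM scale and 3 on total counts alone. An adjusted p below 0.05 was passed by 4 of 29 upward and 1 of 29 downward. These shares are near the 10.4% and 3.69% of all tested genes. Rgs2, a regulator of G protein signalling, rose from 17.0 ± 1.96 to 28.4 ± 2.12 CPM (0.75, adjusted p = 0.00126), and Rhob, a small GTPase, rose from 11.4 ± 1.29 to 16.6 ± 1.56 CPM (0.55, 0.00846). Egr3, a relative of Egr1, fell from 5.17 ± 1.03 to 2.99 ± 0.589 CPM (-0.78, adjusted p = 0.0197). Ier3 (1.37, 0.0463) and Phlda1 (1.09, 0.0328), named after their values were seen, also passed upward, and Egr3 was the 1 gene to pass downward. Atf5, Atf4, Fosl2, Rgs2 and Rhob passed with any single library left out. The call was lost for Jdp2 without control sample 2 (adjusted p = 0.0509 by edgeR), for Mafg without control samples 2 and 3 (0.0659 and 0.059), for Egr3 without control samples 2 and 3 and stress sample 2 (0.081, 0.0638 and 0.0544), and for Phlda1 without control samples 1, 2 and 3 and stress sample 2 (0.0637, 0.0946, 0.0948 and 0.0926). Jund and Ier3 each passed in 2 of 8 such fits. For Jund only the fits without control sample 4 or stress sample 4 passed, and for Ier3 those without control sample 1 or stress sample 3.

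Of 9 dual specificity phosphatases tested, 6 were higher and 1, Dusp6, passed an adjusted p below 0.05, a share near the 10.4% of all tested genes (log2 fold change 0.57, adjusted p = 0.0127 by edgeR), whereas Dusp8 (0.81, adjusted p = 0.129) did not. Among 25 upstream kinases and serum response factor partners tested, 11 were higher and 14 lower, with 5 passing upward and 1 downward. Map2k3, a kinase of the p38 pathway, rose from 61.1 ± 12.3 to 121 ± 21.6 CPM (0.99, adjusted p = 0.00237), Mapkapk2, its downstream kinase, by 0.49 (0.00655) and Mapk14, p38 alpha itself, by 0.41 (0.0193). Mapk3 (0.51, 0.02) and Map2k2 also passed upward and Mkl2, a serum response factor coactivator, passed downward (-0.59, 0.0446), all 3 named after their values were seen. Map2k3 and Mapkapk2 passed with any single library left out. The call was lost for Dusp6 without control samples 2 and 3 (adjusted p = 0.051 and 0.0513 by edgeR), for Mapk14 without control samples 1, 2 and 3 (0.0563, 0.0747 and 0.0673) and for Mapk3 without control samples 2 and 3 and stress sample 1 (0.0824, 0.0667 and 0.0514), and Mkl2 passed in 1 of 8 fits, the one without stress sample 4. None of the tested genes of these 4 lists passed the thresholds of the study in edgeR's quasi-likelihood test with TMM. Other fits did call some of them. Fosl2 passed these thresholds with DESeq2 (log2 fold change 1.21, adjusted p = 0.00038), with limma-voom (1.20, 0.00917) and with edgeR on RLE size factors (1.22, 0.00975), but with no count filter its adjusted p was 0.0594. Jdp2 passed them with DESeq2 (1.45, adjusted p = 0.00113), limma-voom (1.51, 0.00786) and edgeR with no count filter (1.46, 0.00484), and Phlda1 with DESeq2 (1.10, 0.00779). Leaving out 1 library also let Atf5 (without stress samples 1 or 4), Fosl2 (without control sample 4 or stress sample 3), Jdp2 (without control sample 4) and Map2k3 (without control samples 1 or 4 or stress samples 1, 2 or 4) pass. On total counts alone Egr3 (-1.58, adjusted p = 0.00457) and Mkl2 (-1.31, 0.00776) passed downward. On total counts alone 4 of 14, 3 of 29, 2 of 9 and 1 of 25 in these 4 lists were above 0, beside 9.98% of all tested genes. In the same order, 11, 21, 6 and 11 were above the median of all tested genes.

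**Figure D5:**
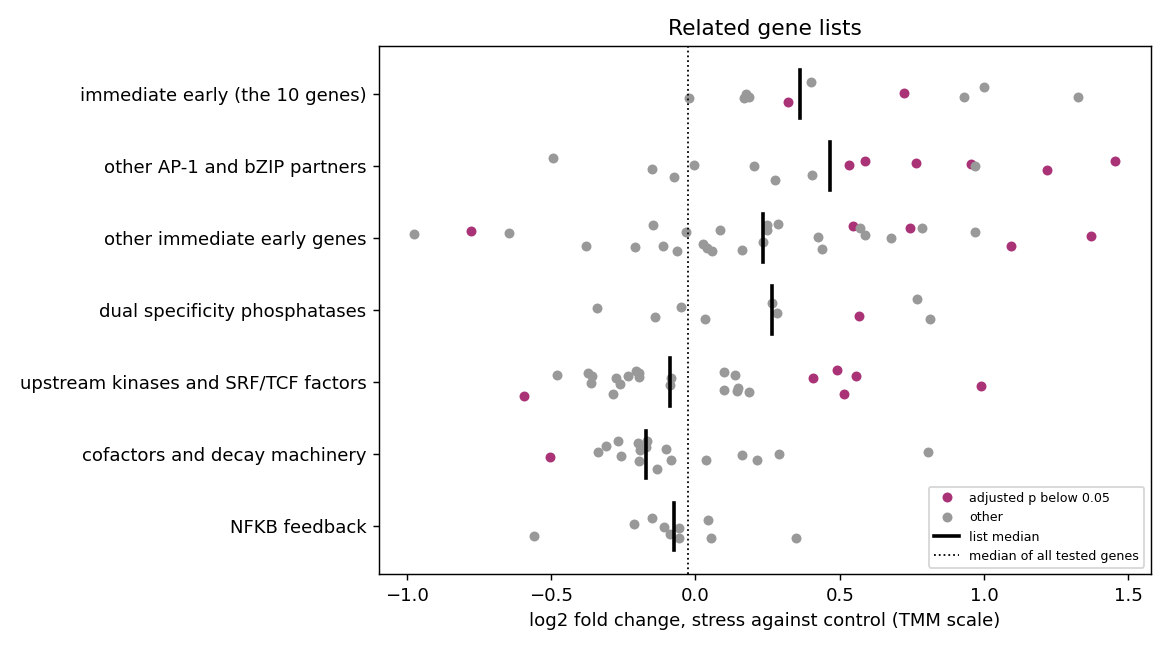
Log2 fold changes of stress over control (TMM scale) for the tested genes of the lists related to the immediate early genes, with the 10 immediate early genes as a list. Each point is a gene, coloured where its adjusted p was below 0.05, thick bars mark list medians and the dotted line marks the median of all tested genes. Medians are 0.36 for the 10 genes, 0.47 for the other AP-1 and bZIP genes and -0.02 over all tested genes.

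Markers of blood cell types moved in the same samples. Of 13 tested neutrophil markers 13 were higher in stress and 10 were called at the thresholds of the study, beside 1.69% of all tested genes called higher. The summed level of the 14 listed was 201 to 392 CPM in the control group and 615 to 916 CPM in the stress group. Classical monocyte markers were higher in 8 of 9, with 7 called (512 to 625 and 861 to 1354 CPM). Platelet markers were higher in 9 of 9, with 3 called (1383 to 2079 and 3182 to 3812 CPM). On total counts alone 13, 7 and 9 markers of these 3 lists were above 0, beside 9.98% of all tested genes. Erythroid markers were higher in 9 of 10 on both scales, with 1 passing an adjusted p below 0.05 upward on the TMM scale. Their sums overlapped between groups on both scales, with 534917 to 663367 and 633439 to 776480 CPM on total counts alone. No erythroid, B cell, T cell or NK cell marker was called at the thresholds of the study. Of the B cell markers 8 of 8 were lower on both scales, and their sum was 971 to 1199 CPM in the control group and 659 to 880.0 CPM in the stress group. T cell markers (3 of 8 higher) had overlapping sums of 459 to 496 and 410.3 to 509.8 CPM, as did NK cell markers (60.1 to 105 and 53.3 to 116 CPM). No listed marker in the table was at 0 in all 8 samples. On the TMM scale these sums did not overlap between groups for neutrophil, monocyte, platelet and B cell markers, and neither did Junb, Egr1, Ier2 or Zfp36. On total counts alone the sums overlapped for neutrophil (356 to 437 and 341 to 1008 CPM), monocyte (629 to 1026 and 622 to 1408 CPM) and platelet markers (2092 to 2453 and 1933 to 3539 CPM), and not for B cell markers (997 to 2127 and 422 to 968 CPM) or NK cell markers (70.3 to 127 and 39.4 to 58.7 CPM), and none of the 10 genes was separated. Their part in the results for the immediate early genes was not tested.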

How the data were processed

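RNA from the peripheral blood of 4 control and 4 stress samples was sequenced, and the authors deposited 1 table of whole-number read counts by gene symbol, without normalization. The submitters' processing notes name HISAT2, featureCounts and mm10. Versions, the annotation, the use of strand and any filter are not given in the sources used here. Genes that reached 10 counts in 4 or more of 8 samples (11718 of 21878) were tested with edgeR 4.0.16 (R 4.3.3): TMM factors, robust quasi-likelihood fit and Benjamini-Hochberg adjustment over all genes tested. Calls used the thresholds of the study (adjusted p under 0.01, log2 fold change beyond 1 in either direction). DESeq2 1.42.0 and limma-voom 3.58.1 were alternatives, as were other scalings and filters, the replicate number as a block, and the fit without each sample in turn. The script was tested on simulated data. Log2 CPM used a prior count of 2. Exact permutation tests (scipy 1.17.1) ran over samples.

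The 10 genes and all lists were chosen with earlier results of these data known. Named genes were the 10, up to 3 further genes of each related list with the smallest p, and the closest profile of each. The deposited counts have no unassigned columns. Positions are from the GENCODE annotation of GRCm38 and sequences from RefSeq.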

Additional observations from a re-analysis of the deposited data

Results flagged for a closer look

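Each group of 4 samples was searched for a value far from the others, by Dixon's ratio of the gap to the nearest sample over the range of the group (95% critical value), for the CPM of the 10 genes and for the 8 ratios. Of 36 groups examined 4 had such a value, where chance gives about 1 in 20. Control sample 3 was the lowest of its group for Fosb, at 0.477 CPM, and for Atf3, at 0.607 CPM. Control sample 2 was the highest of its group for Egr1, at 2.40 CPM. Stress sample 2 was the highest of its group for Klf6, at 77.3 CPM.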

How the results depend on the processing

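The scarcest of the 10 genes, Fosb, rested on 4 to 65 counts in the stress samples, and 6 of the 10 genes turned sign on total counts alone. The count of genes called higher was 198 and that of genes called lower 2, against 307 and 12 with DESeq2, 14 and 729 on total counts alone, 1223 and 432 at an adjusted p below 0.05 with no fold limit, and 76 to 340 and 1 to 8 with one sample left out. Without control samples 2, 3 and 4 the genes called higher were 76, 95 and 340. Genes called lower were 4 with no count filter, 4 with upper quartile factors and 1 with the replicate block. Of the 10 genes, 2 passed an adjusted p below 0.05 with no fold limit. On total counts alone the log2 fold change turned negative for Jun -0.56, Junb -0.032, Egr1 -0.39, Ier2 -0.47, Zfp36 -0.61, Klf6 -0.61, Atf4 -0.27, Rgs2 -0.0057, Rhob -0.21, Dusp6 -0.17, Mapkapk2 -0.28, Mapk14 -0.35, Btg3 -0.0012, Nab1 -0.47, Bcl3 -0.41, Zc3h12a -0.62, Ptpn11 -0.10, Snx20 -0.38, Prkaca -0.43, Wipf1 -0.61, Eif4g2 -0.62, Jund -0.043, Mafg -0.15 and Mapk3 -0.29; this follows from the shift of the typical gene to -0.82. The log2 fold change of Btg2 was -0.0577 to 0.0286 with one sample left out. The difference in the Fos to Fosb log2 ratio, stress minus control, was -0.00272 with a prior of 5 counts and -0.197 to 0.528 with one sample left out. With one sample left out the Klf6 to Junb log2 ratio differed by -0.604 to -0.482 and Zfp36 to Junb by -0.622 to -0.467, where p cannot go below 0.0571. Over the alternatives the log2 fold changes of the 10 genes kept direction and side of an adjusted p of 0.05 in 146 cases, lost the call in 9, gained it in 5 and turned sign in 9. For the other named genes these numbers were 493, 55, 10 and 18.

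Over all tested genes, same-numbered samples had correlations of deviations from -0.160 to 0.0621. Of the 8 samples, 2 correlated best with their own number. Whether the numbers pair the samples is not stated in the labels, and correlations over all genes cannot decide it for single genes. With the replicate block 189 genes were called higher, Fos had a log2 fold change of 0.97 (adjusted p = 0.00666), Ier2 0.32 (0.0888) and Junb 0.72 (0.0032) by edgeR. Dusp1 (0.76, 0.0179) gained an adjusted p below 0.05 with the block and Mapk14 (0.0525), Prkaca (0.0623), Jund (0.0906), Ier3 (0.0932) and Phlda1 (0.075) lost it, and Fosl2 (1.13, 0.00197) passed the thresholds of the study. The block changed no other call of a named gene at an adjusted p of 0.05.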

Other observations

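Genes of mRNA decay and of NF-kB feedback were read beside the 10 immediate early genes, because Zfp36 and Btg2 act with the decay machinery. Of 18 tested cofactors and decay genes, 5 were higher and 13 lower on the TMM scale, with a median log2 fold change of -0.17. On total counts alone 0 were above 0, beside 9.98% of all tested genes. Pan2, the catalytic subunit of a deadenylase, fell from 20.7 ± 0.530 to 14.5 ± 2.63 CPM (SD, n = 4 each, log2 fold change -0.50, adjusted p = 0.0184 by edgeR). It was the 1 gene of the list to pass an adjusted p below 0.05 on the TMM scale. The call was lost without control sample 2 (0.059) and without stress sample 2 (0.0528). On total counts alone Pan2 was at -1.25 (adjusted p = 0.00895 by edgeR), beside a median of -0.82 over all tested genes. Btg3, a relative of Btg2, had a log2 fold change of 0.81 (adjusted p = 0.0732 by edgeR, 0.0347 by DESeq2) and Nab1, a corepressor of Egr proteins, 0.29 (adjusted p = 0.081), and neither passed in the test by edgeR.

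Of 10 NF-kB feedback genes, 3 were higher and 7 lower on the TMM scale, and on that scale 0 passed an adjusted p below 0.05 by edgeR. On total counts alone 0 were above 0, beside 9.98% of all tested genes. On the TMM scale Rel had the smallest p (log2 fold change -0.56, unadjusted p 0.0263, adjusted p = 0.109), followed by Bcl3 (0.35, adjusted p = 0.19) and Tnfaip3, which encodes A20 (-0.21, adjusted p = 0.287). With total counts alone Rel (-1.28, adjusted p = 0.00817 by edgeR) and Tnfaip3 (-0.98, 0.0195) passed an adjusted p below 0.05 downward, and Bcl3 (-0.41, 0.284) did not. On that scale 5811 of 11718 tested genes passed downward.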
